A study of Mus musculus with 9 samples.

Results

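The genes described here encode the active zone of the hair cell (HC) ribbon synapse and its calcium channel. They were 10 genes chosen by name, all of them among the 43808 gene rows of each library: *Cacna1d*, *Cacnb2*, *Cabp1*, *Cabp2*, *Rimbp2*, *Rims2*, *Bsn*, *Pclo*, *Ctbp2* and *Ppfia4*. Of the 10, 9 passed the filter for testing (a count of 20 or higher in 2 or 3 libraries of some genotype), as did 15184 of all 43808 genes. *Cabp2* did not. Values are CPM, the count of a gene scaled to the total count of its library.

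Cochlear and vestibular HCs were sorted at postnatal day 1 (P1) from mice with 0, 1 or 2 copies of the Dmdo allele of *Mir96*, which carries a base substitution in the seed of miR-96. The 3 groups were wild-type (*Mir96* +/+, replicates 44, 55 and 59), heterozygous (*Mir96* +/Dmdo, replicates 45, 48 and 51) and homozygous mutant (*Mir96* Dmdo/Dmdo, replicates 43, 46 and 47), with 1 library from both ears of 1 mouse each. All 9 mice, controls included, carried *Atoh1/nGFP*, a transgene that marks cells with *Atoh1* expression with green fluorescent protein, on a background made by crossing the C3HeB/FeJ Dmdo strain with C57BL6 mice. Sorting kept cells with both reporter fluorescence and CD326, a surface protein of epithelia, a gate meant to leave reporter-positive neurons out. The allele is in the germ line, so every cell of the mouse carries it, and cochlear and vestibular HCs were pooled in each library. The comparison asked how transcripts of HCs differ with the number of Dmdo alleles.

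At a ribbon synapse, vesicles are tethered to an electron-dense ribbon above a cluster of voltage-gated calcium channels, and calcium entry through these channels makes the vesicles fuse with the membrane. In HCs the main channel is the L-type channel CaV1.3. Large scaffold proteins anchor the ribbon and hold channels and vesicles close together, which lets HCs transmit sound and head movement to afferent neurons without action potentials.

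The allele is shown first because it is the only designed difference between the groups. The mature miR-96-5p (RefSeq, GRCm38.p6) is encoded at chr6:30169506-30169528 on the minus strand. The lines below give the wild-type form and the form with the Dmdo substitution, A7U counted from the 5′ end, with the seed (bases 2 to 8) in capitals.
miR-96-5p: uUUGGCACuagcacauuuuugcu
miR-96-5p with the Dmdo substitution: uUUGGCUCuagcacauuuuugcu

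Libraries held 18175317 to 34873964 counted reads, so a count of 0 allows up to 0.086 to 0.165 CPM (3 reads, counting error only). Replicates of a genotype correlated with r of 0.803 to 0.906 on log2 CPM across genes and their counts differed beyond sampling noise, with a chi-square per gene of 103 to 242. All 10 HC markers were detected in all libraries, with a summed level of 8132 to 9444 CPM in wild-type, 8173 to 8388 in heterozygous and 6253 to 8643 in homozygous mutant HCs. Between homozygous mutant and wild-type HCs, 1 of these 10 was called lower by edgeR, against 0.915% of all genes tested. It was *Espn* (log2 fold change -1.18, adjusted p = 0.0236). An unadjusted p under 0.05 was reached by 4, with *Espn*, *Myo7a* and *Gfi1* lower and *Pvalb* higher. The median log2 fold change of the 10 was -0.09. Supporting cell markers (10 of 10 detected) summed to 1215 to 2051, 1286 to 1916 and 1251 to 1467 CPM, and Schwann cell markers (5 of 5) to 93.4 to 293, 126 to 200 and 124 to 334 CPM. Mesenchyme markers (5 of 5) reached 709 CPM in homozygous mutant 46, against 50.3 to 221 CPM in the other 8 libraries. The 3 red blood cell markers were listed at 0 throughout. So was *Ppp1ca*, a gene that nearly all cells use, so no absence of red blood cells is read from these values. Neuron markers matter most beside synaptic genes, which neurons also express. The neuron list of 10 summed to 41.3 to 105 CPM in wild-type, 51.5 to 68.7 in heterozygous and 49.2 to 74.9 in homozygous mutant HCs, and wild-type 44 was highest, with *Tubb3* at 14 and *Prph* at 14.4 CPM. In the 8 other libraries *Prph* was at or below 0.11 CPM. *Neurod1* had 2, 209 and 62 reads in homozygous mutant 43, 46 and 47 against 2, 1 and 0 in wild-type 44, 55 and 59. *Stmn2* had 0, 227 and 241 reads in the same homozygous mutant libraries against 63, 1 and 1 in wild-type. *Ntrk2* and *Ntrk3* went the other way, without overlap. Of all genes tested, 7.72% were lower without overlap in homozygous mutant libraries. The means of *Ntrk2* and *Ntrk3* were 11.2 and 13.8 CPM in homozygous mutant against 25.5 and 23.2 CPM in wild-type HCs (adjusted p = 0.436 and 0.659 from edgeR). Of the 7 neuron markers that passed the filter, 5 had a log2 fold change above 0 between homozygous mutant and wild-type HCs, with a median of 0.75, and none was called by edgeR (1, *Neurod1*, at an unadjusted p under 0.05). *Stmn2*, *Gap43* and *Neurod1*, all above 0, passed the filter through homozygous mutant libraries only, so the filter favoured that direction for them. *Tubb3*, *Elavl3* and *Prph* did not pass. Their homozygous mutant means were 1.14%, 47.7% and 0.762% of the wild-type means. The part of other cell types in the results below was not tested. In bulk samples, fewer cells of a type and less RNA per cell cannot be told apart.

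Between homozygous mutant and wild-type HCs, *Rimbp2* and *Ppfia4* fell, to 40.7% and 44.7% of the wild-type mean. No member rose. These are 2 of the 9 members tested, where 0.915% of all genes tested were called lower and 0.237% higher. A call needed a false discovery rate (FDR) under 10% and a fold change above 1.5 in edgeR's quasi-likelihood test, adjusted over all 15184 genes. The fitted log2 fold changes of 8 of the 9 members were below 0, with a median of -0.80 against -0.02 for all genes tested, and 6 of 9 had an unadjusted p under 0.05, all of them lower, against 8.19% of all genes lower at that level. *Cabp1* is in both counts, but it passed the filter through wild-type and heterozygous libraries only, so the filter favoured that direction for it. The members were chosen with earlier results of these data known, so these counts are a description.

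**Figure D1:**
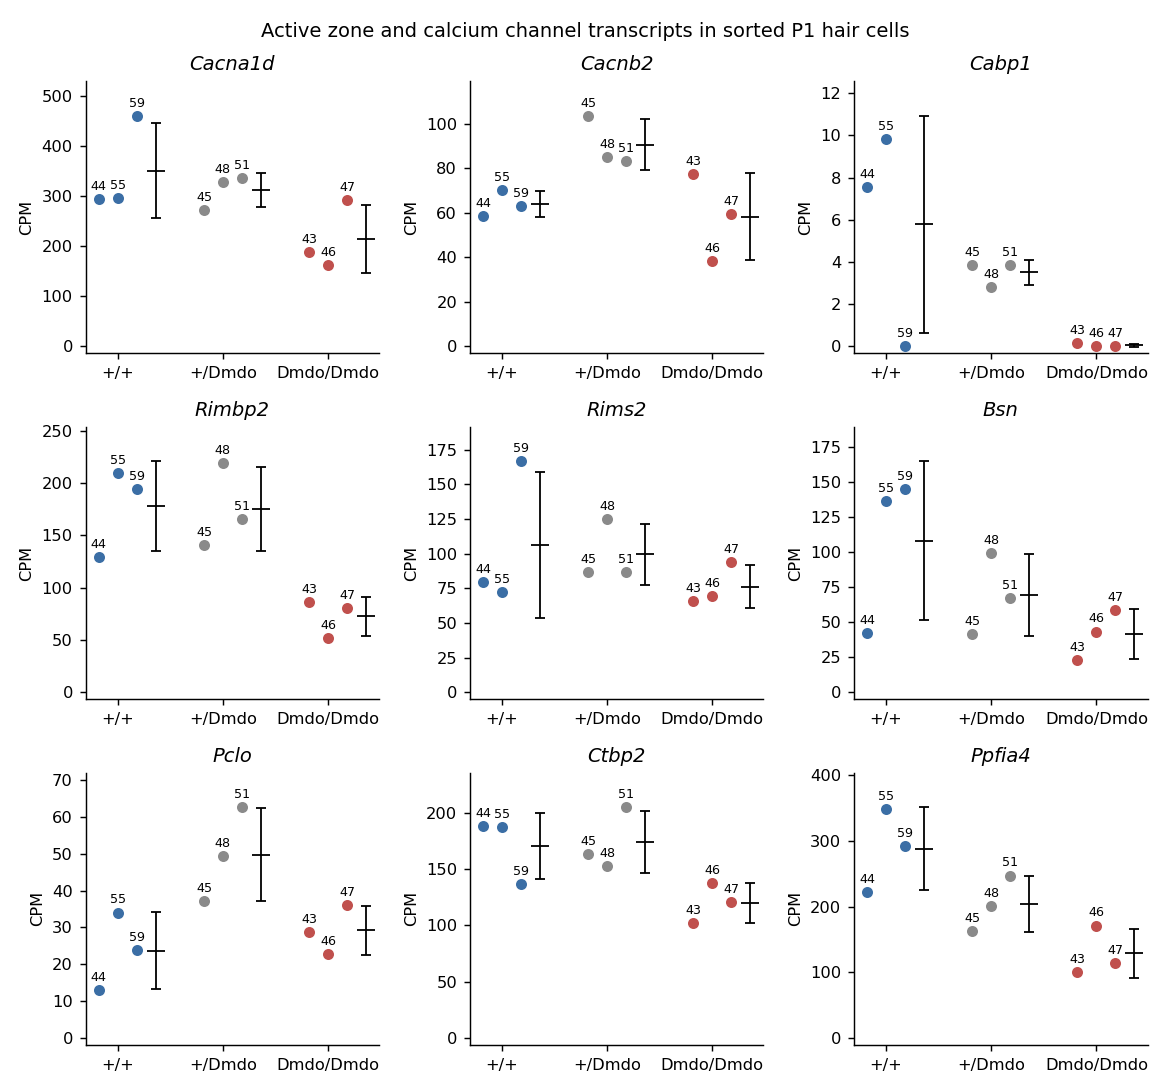
CPM of the 9 members with reads in each library (y axis, linear from 0), by genotype (x axis: +/+ wild-type, +/Dmdo heterozygous, Dmdo/Dmdo homozygous mutant). Points are libraries with their mouse number, and the black bar is the mean with its SD (n = 3 per genotype). *Rimbp2* and *Ppfia4* lie lower in all 3 homozygous mutant libraries than in any wild-type library, while *Bsn* and *Rims2* overlap.

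*Cacna1d* encodes the pore-forming α1 subunit of CaV1.3 and lies on chromosome 14 of GRCm38 (30039939 to 30491455, minus strand). It was at 295, 298 and 462 CPM in wild-type 44, 55 and 59. The heterozygous libraries 45, 48 and 51 held 273, 329 and 337 CPM, and homozygous mutant 43, 46 and 47 held 190, 162 and 292 CPM. Homozygous mutant 47 thus came close to wild-type 44 without reaching it, and the wild-type mean was drawn up by library 59. The means were 351 ± 95.4, 313 ± 34.6 and 215 ± 68.3 CPM (SD, n = 3 each). The log2 fold change between homozygous mutant and wild-type HCs was -0.80 (standard error 0.28, adjusted p = 0.215, edgeR's quasi-likelihood test), so the difference did not pass. DESeq2 called it (adjusted p = 0.0966), as did edgeR without wild-type 44 (-0.92, adjusted p = 0.0909).

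*Cacnb2* encodes the β2 subunit, which carries the α1 subunit to the membrane and shapes its gating (chromosome 2, 14603088 to 14987908, plus strand). Its CPM was 58.7, 70.4 and 62.9 in the wild-type libraries, 104, 84.9 and 83.2 in the heterozygous and 77.2, 38.2 and 59.5 in the homozygous mutant libraries, in the order of mice given above. The heterozygous libraries were all above the wild-type and the homozygous mutant ones, while the other 2 genotypes overlapped. The log2 fold change was 0.41 (standard error 0.35) between heterozygous and wild-type HCs and -0.22 (standard error 0.35) between homozygous mutant and wild-type HCs, neither called by edgeR (adjusted p = 1 and 0.853). Within a library, the ratio of *Cacnb2* to *Cacna1d* per kilobase of exon was 0.13 to 0.226 in wild-type, 0.235 to 0.362 in heterozygous and 0.194 to 0.389 in homozygous mutant HCs. An exact two-sided permutation test of the log2 ratio gave p = 0.1 for heterozygous and p = 0.3 for homozygous mutant against wild-type HCs, where 0.1 is the smallest p that 3 against 3 allows. This ratio was not among the planned comparisons, and both tests share the wild-type libraries.

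*Cabp1* encodes a calmodulin-like protein that binds calcium channels and slows their calcium-dependent inactivation (chromosome 5, 115168689 to 115194381, minus strand). It had 169, 280 and 0 reads in wild-type 44, 55 and 59 (7.55, 9.83 and 0 CPM). The heterozygous libraries held 114, 94 and 134 reads (3.87, 2.81 and 3.84 CPM), and the homozygous mutant libraries held 4, 0 and 1 (0.144, 0 and 0.0323 CPM). All 3 homozygous mutant libraries were thus at or near the limit of detection, but so was wild-type 59, and the 2 groups overlapped. The gene varied far more between replicates than the other members, with a biological coefficient of variation of 1.47 against 0.262 to 0.446. The fitted log2 fold change of -6.55 (standard error 2.60, 95% interval -11.94 to -1.16) did not pass edgeR's quasi-likelihood test (adjusted p = 0.282), whereas DESeq2 called it lower (adjusted p = 0.0161). With 0 to 4 reads in the homozygous mutant libraries, the size of this fold change depends on the model. *Cabp1* passed the filter through the wild-type and heterozygous libraries only.

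*Cabp2* encodes a relative of CaBP1 that is required for hearing (chromosome 19, 4081578 to 4087340, plus strand). It was listed at 0 reads in all 9 libraries. *Cabp4*, another gene of the CaBP family, and *Ppp1ca*, which encodes a catalytic subunit of protein phosphatase 1 that nearly all cells use and was read beside them after the values were seen, were also listed at 0 in all 9 libraries. *Cabp2* is therefore given only as listed at 0, with no fold change.

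*Rimbp2* encodes RIM-binding protein 2, which ties calcium channels to RIM proteins and so to docked vesicles (chromosome 5, 128757791 to 128953486, minus strand). It was at 129, 210 and 194 CPM in wild-type 44, 55 and 59. It was at 140, 219 and 165 CPM in heterozygous 45, 48 and 51, and at 86, 51.4 and 80.1 CPM in homozygous mutant 43, 46 and 47. The highest homozygous mutant library lay below the lowest library of both other genotypes, and the heterozygous and wild-type libraries covered the same range. The means were 178 ± 42.7 CPM in wild-type, 175 ± 40.3 in heterozygous and 72.5 ± 18.5 in homozygous mutant HCs (SD, n = 3 each). *Rimbp2* fell by 1.39 on the log2 scale between wild-type and homozygous mutant HCs (standard error 0.31, 95% interval -2.02 to -0.75, adjusted p = 0.044, edgeR's quasi-likelihood test). The call was lost without wild-type 55 (-1.27, adjusted p = 0.134), wild-type 59 (-1.29, 0.18), homozygous mutant 43 (-1.48, 0.176), homozygous mutant 46 (-1.18, 0.211) or homozygous mutant 47 (-1.46, 0.141), all by edgeR. The fold change stayed between -1.57 and -0.96 over 20 alternative settings, 11 of which called it.

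No difference in *Rimbp2* between heterozygous and wild-type HCs was detectable, with a log2 fold change of -0.11 and a 95% interval of -0.74 to 0.51. That interval leaves room for changes of either sign. Against heterozygous HCs the homozygous mutant log2 fold change was -1.27 (standard error 0.30, 95% interval -1.90 to -0.64). It ranked 9 of 15184 genes by p in that comparison but was not called by edgeR (adjusted p = 0.552), whereas DESeq2 and limma-voom called it, among 147 and 151 genes in all against 1 by edgeR.

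*Rims2* encodes RIM2, the scaffold that links vesicles, priming factors and calcium channels (chromosome 15, 39198261 to 39684372, plus strand). Wild-type libraries 44 and 55 held 79.8 and 72.2 CPM and wild-type 59 held 166 CPM. The heterozygous libraries held 87, 125 and 86.3 CPM and the homozygous mutant libraries 65.6, 69.3 and 93.7 CPM. All 3 genotypes overlapped, and most of the difference in means came with wild-type 59. The log2 fold change of -0.58 between homozygous mutant and wild-type HCs (standard error 0.36, adjusted p = 0.526 from edgeR) was 0.02 once wild-type 59 and homozygous mutant 46 were both left out.

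*Bsn* and *Pclo* encode bassoon and piccolo, 2 related giant scaffold proteins. Bassoon anchors the ribbon to the membrane, and HCs hold a short form of piccolo at the ribbon. *Bsn* (chromosome 9, 108096022 to 108190384, minus strand) was at 42.6, 136 and 145 CPM in wild-type 44, 55 and 59. It was at 41.4, 99.6 and 67 CPM in the heterozygous libraries and at 22.7, 43.3 and 58.5 CPM in the homozygous mutant libraries. Wild-type 44 lay within the homozygous mutant range and far below the other 2 wild-type libraries. The means were 108 ± 56.8, 69.4 ± 29.2 and 41.5 ± 18 CPM (SD, n = 3 each), and the log2 fold change of -1.47 between homozygous mutant and wild-type HCs (standard error 0.47, adjusted p = 0.186) did not pass edgeR's quasi-likelihood test. Without wild-type 44 it was called (-1.84, adjusted p = 0.0204 from edgeR), and DESeq2 called it with all libraries (adjusted p = 0.0794).

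*Pclo* (chromosome 5, 14514918 to 14863459, plus strand) was at 13.1, 34.1 and 24 CPM in the wild-type, 37.3, 49.4 and 62.6 CPM in the heterozygous and 28.7, 22.9 and 36.2 CPM in the homozygous mutant libraries. The heterozygous libraries were above all others, while wild-type and homozygous mutant libraries overlapped. The heterozygous mean was 210% of the wild-type mean, but the log2 fold change of 0.98 (standard error 0.49) was not called by edgeR (adjusted p = 1). Between homozygous mutant and wild-type HCs it was 0.21 (standard error 0.49, adjusted p = 0.911 from edgeR).

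Because bassoon and piccolo are related and were counted in the same libraries, their ratio does not depend on the scaling between libraries. Per kilobase of exon, *Bsn* reads were 4.57, 5.64 and 8.51 times those of *Pclo* in wild-type 44, 55 and 59. The ratio was 1.57, 2.84 and 1.51 in heterozygous 45, 48 and 51 and 1.11, 2.67 and 2.28 in homozygous mutant 43, 46 and 47. All 6 libraries with a Dmdo allele were below all 3 wild-type libraries, and heterozygous and homozygous mutant libraries covered a similar range (means 1.97 ± 0.754 and 2.02 ± 0.808 against 6.24 ± 2.04, SD, n = 3 each). An exact two-sided permutation test of the log2 ratio gave p = 0.1 for each genotype against wild-type, the smallest p that 3 against 3 allows. The ratio was chosen after the values were seen, and both comparisons share the wild-type libraries. How many other gene pairs separate in the same way was not examined. The ratio joins the changes of both genes. *Bsn* was at 64.3% of the wild-type mean in heterozygous and 38.4% in homozygous mutant HCs, and *Pclo* at 210% and 123%. The length of *Pclo* used is that of all its annotated exons, which affects the size of every ratio by the same factor.

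**Figure D2:**
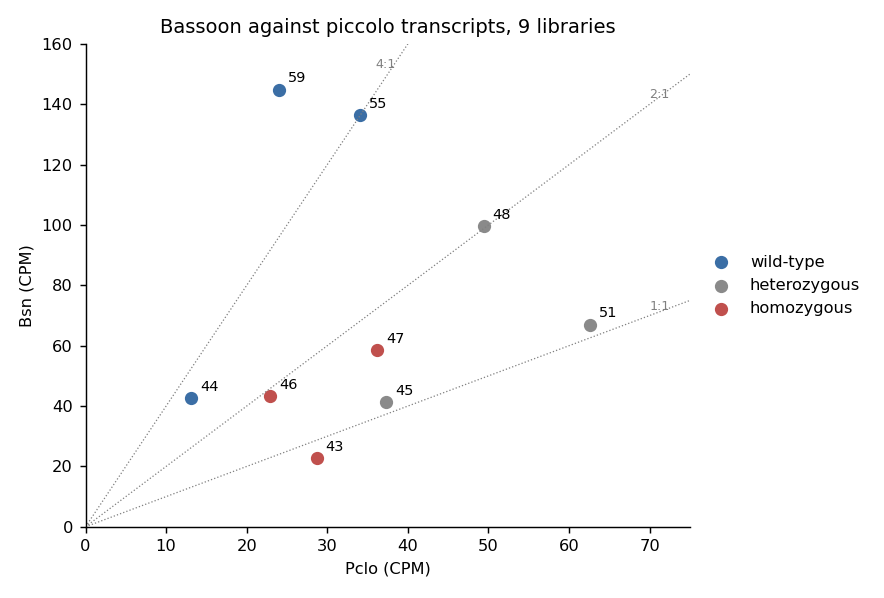
*Bsn* (y axis, CPM) against *Pclo* (x axis, CPM) in each of the 9 libraries, labelled by mouse number and coloured by genotype. Dotted lines mark 1, 2 and 4 *Bsn* reads per *Pclo* read, not scaled for length. The 3 wild-type libraries lie nearer to the steepest line or above it, and the heterozygous and homozygous mutant libraries lie around the 2 lower lines.

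*Ctbp2* encodes RIBEYE, the main protein of the ribbon, and from other start sites the transcriptional corepressor CtBP2 (chromosome 7, 132987563 to 133124354, minus strand). A count per gene cannot separate them. The gene was at 188, 187 and 137 CPM in wild-type, 163, 153 and 205 CPM in heterozygous and 102, 137 and 120 CPM in homozygous mutant libraries. Wild-type 59 (137.0 CPM) lay just below homozygous mutant 46 (137.4 CPM), so these groups overlapped narrowly, while all homozygous mutant libraries were below the heterozygous ones. The log2 fold change between homozygous mutant and wild-type HCs was -0.59 (standard error 0.27, 95% interval -1.14 to -0.03, adjusted p = 0.355 from edgeR), which was not called.

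*Ppfia4* encodes liprin-α4, of a family of adaptors that organise active zones (chromosome 1, 134296783 to 134332928, minus strand). It was at 222, 349 and 293 CPM in wild-type 44, 55 and 59. It was at 163, 201 and 247 CPM in the heterozygous and at 101, 171 and 115 CPM in the homozygous mutant libraries. All homozygous mutant libraries were below all wild-type libraries, and the heterozygous libraries overlapped both. The means were 288 ± 63.3, 204 ± 42 and 129 ± 37.4 CPM (SD, n = 3 each), with the heterozygous mean at 70.8% of wild-type. *Ppfia4* fell by 1.24 on the log2 scale between wild-type and homozygous mutant HCs (standard error 0.29, 95% interval -1.83 to -0.65, adjusted p = 0.0588, edgeR's quasi-likelihood test). The call was lost without wild-type 55 (-1.10, adjusted p = 0.165), wild-type 59 (-1.20, 0.18), heterozygous 51 (-1.24, 0.102), homozygous mutant 43 (-1.05, 0.274) or homozygous mutant 47 (-1.16, 0.197), all by edgeR.

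**Figure D3:**
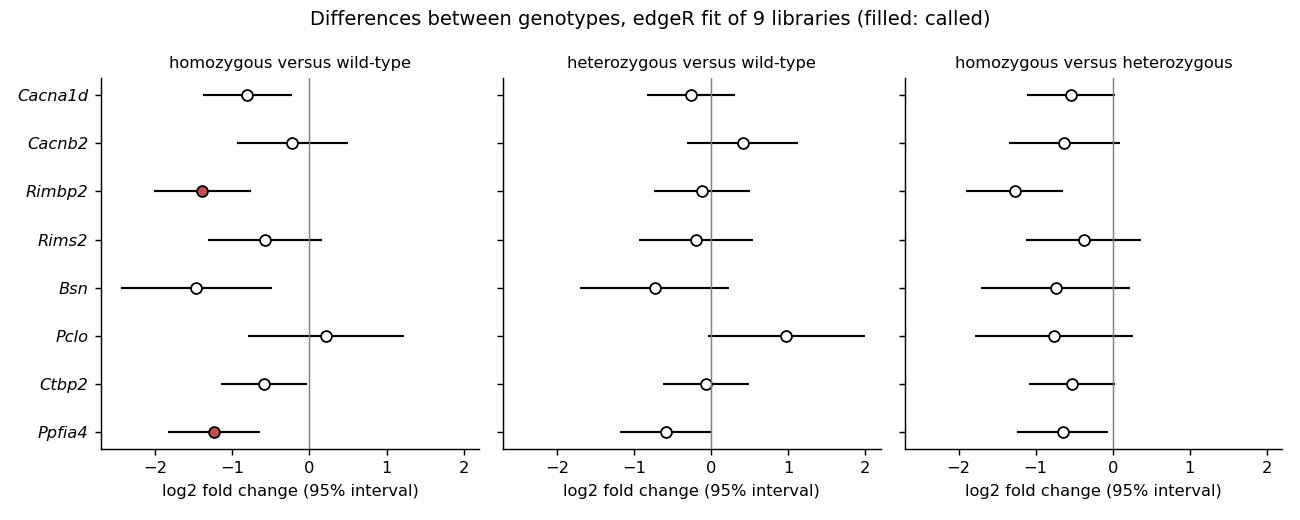
Log2 fold changes (x axis, with 95% intervals as lines) of 8 members (y axis) in the 3 comparisons of genotypes, from 1 edgeR fit of all 9 libraries. Filled points are called (FDR under 10%, fold above 1.5). *Cabp1* is left out because its interval between homozygous mutant and wild-type HCs, -11.94 to -1.16, would hide the others. *Rimbp2* is near 0 in heterozygous against wild-type HCs, and *Ppfia4* is at -0.59 there.

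By the plain criterion that the CPM of 2 genotypes do not overlap, 3 of the 9 members (*Cacna1d*, *Rimbp2* and *Ppfia4*) were lower in homozygous mutant than in wild-type libraries, against 7.72% of all genes tested, and 0 were higher, against 9.15%. Scaled by TMM, *Ctbp2* joined them. In heterozygous against wild-type libraries 2 of 9 were higher (*Cacnb2* and *Pclo*), against 6.78% of all genes, and 0 were lower, against 4.11%. No member was called in that comparison by edgeR, where 0% of all genes were called in either direction. An unadjusted p under 0.05 was reached by 1 member, *Ppfia4* (-0.59, 95% interval -1.18 to -0.00), and by 4.52% of all genes. DESeq2 and limma-voom also called 0 members, with 45 and 1 of all genes called. In homozygous mutant against heterozygous libraries 5 of 9 were lower without overlap (*Cacnb2*, *Cabp1*, *Rimbp2*, *Pclo* and *Ctbp2*), against 7.44% of all genes, and 0 were higher, against 6.65%. All 9 log2 fold changes were below 0 with a median of -0.65 against 0 over all genes tested. *Cabp1* is in both counts, but it passed the filter through wild-type and heterozygous libraries only, so the filter favoured that direction for it. None was called by edgeR, where 0.00659% of all genes were called lower. The 3 comparisons share libraries with each other.

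As a slope per Dmdo allele over the 3 genotypes, *Ppfia4* fell by 0.62 (standard error 0.14, adjusted p = 0.0372, edgeR's quasi-likelihood test) and *Rimbp2* fell by 0.69 (standard error 0.17, adjusted p = 0.0606) on the log2 scale. These 2 of 9 members stand beside 1.34% of all genes called lower with allele number and 0.435% called higher at an FDR under 10%. The means of *Ppfia4* stepped down at each allele, from 288 to 204 to 129 CPM, whereas those of *Rimbp2* were 178, 175 and 72.5 CPM. *Bsn* had a slope of -0.73 (standard error 0.22) and *Cacna1d* of -0.40 (standard error 0.14), neither called by edgeR (adjusted p = 0.131 and 0.162). The *Rimbp2* slope was no longer called without wild-type 55, wild-type 59 or any 1 homozygous mutant library (adjusted p of 0.14 to 0.225), and the *Ppfia4* slope without wild-type 55, wild-type 59, homozygous mutant 43 or homozygous mutant 47 (0.123 to 0.191).

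The number in the library labels, used here as a name for each mouse, and sex were not evenly spread over the genotypes. What the numbers stand for (an order of mice or of litters, for example) is unknown here. All 3 homozygous mutant mice had numbers of 47 or lower, as had wild-type 44 and heterozygous 45. The female transcript *Xist* exceeded the Y-linked *Ddx3y* in wild-type 44, wild-type 59 and heterozygous 48 only. With the mouse number split as a term, the log2 fold changes between homozygous mutant and wild-type HCs were -0.96 for *Rimbp2* and -0.87 for *Ppfia4* (adjusted p = 0.455 and 0.468 from edgeR). With the sex transcripts as a term they were -1.31 and -1.36 (adjusted p = 0.402 and 0.321 from edgeR). No within-number or within-sex contrast is complete, because the homozygous mutant libraries are all of 1 kind in both.

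**Figure D4:**
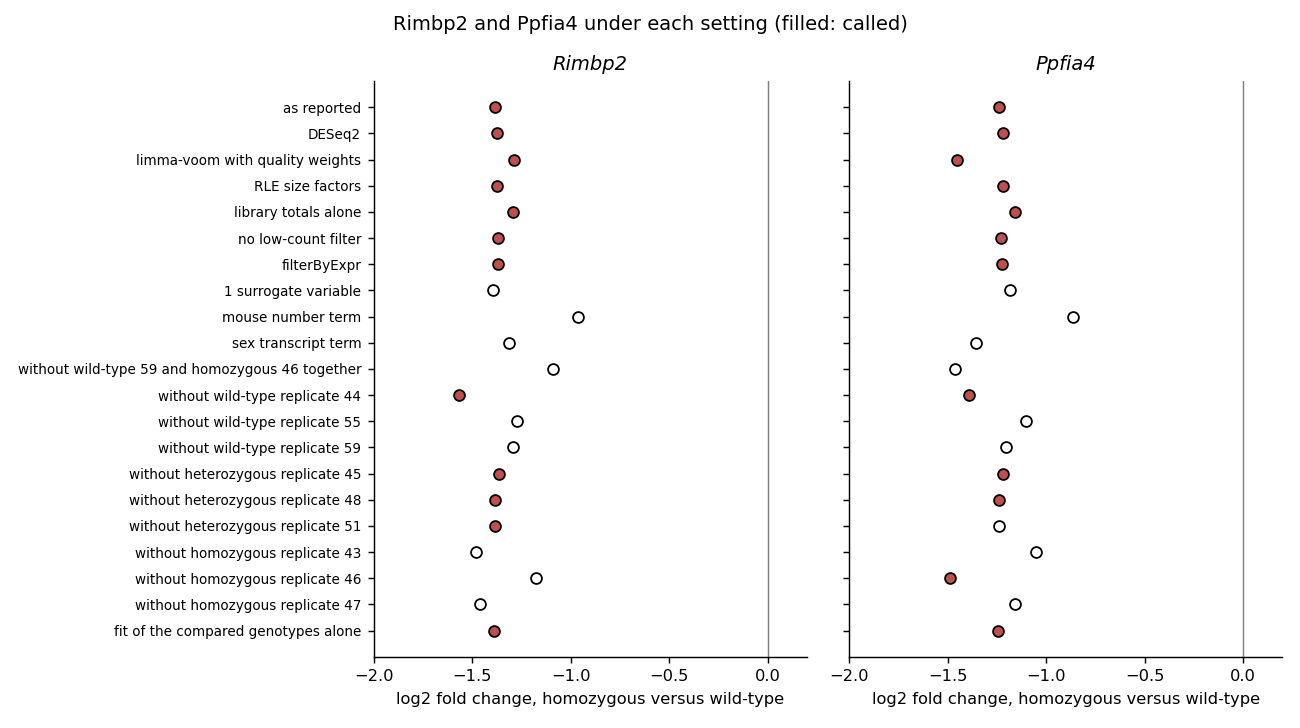
Log2 fold change between homozygous mutant and wild-type HCs (x axis) of *Rimbp2* and *Ppfia4* as reported and under 20 alternative settings (y axis, tools, scalings, filters, added terms and left-out libraries). Filled points are called at an FDR under 10% and a fold above 1.5. All points are below 0, and 11 of the 20 alternatives call each gene.

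Levels of different genes were compared per kilobase of annotated exon (GENCODE vM21). In wild-type HCs *Ppfia4* was highest at 43.8 ± 9.62 CPM per kilobase, followed by *Cacna1d* (27.8 ± 7.56), *Ctbp2* (27.4 ± 4.7) and *Rimbp2* (22.4 ± 5.38), with n = 3 each. The ranges of neighbours in this order overlapped. *Rims2* (10.2 ± 5.04), *Bsn* (6.77 ± 3.56) and *Cacnb2* (4.84 ± 0.447) formed a lower tier, also overlapping with the next in order, and *Rims2* stayed below *Rimbp2* in range. *Pclo* (1.06 ± 0.466) and *Cabp1* (0.993 ± 0.882) were lowest and separate from *Cacnb2*. The length used for *Pclo* was that of all its annotated exons (22.5 kilobases), so a short form in HCs would read too low on this scale. In homozygous mutant HCs *Ppfia4*, *Ctbp2* and *Cacna1d* were at 19.6 ± 5.69, 19.3 ± 2.86 and 17 ± 5.41 CPM per kilobase with overlapping ranges, and *Rimbp2* at 9.14 ± 2.33 was separate below them. *Rimbp2* and *Rims2* (7.33 ± 1.47) overlapped there, which they did not in wild-type HCs. The study's methods describe counts over coding regions, so genes with long untranslated ends may read too low on this scale, and the ends of a gene are the same in all genotypes.

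The 3′ UTRs of all basic coding transcripts of the members (GENCODE vM21 on GRCm38) were searched on the transcript strand for matches to both forms of the seed. Lengths given are those of the longest 3′ UTR per gene. The wild-type matches were GTGCCAAA or either of its 7-base ends, GTGCCAA and TGCCAAA, and the Dmdo matches were GAGCCAAA, GAGCCAA and AGCCAAA. Wild-type matches were in 4 of 10 members (*Cacnb2*, *Cabp1*, *Rimbp2* and *Pclo*), against 20.6% of 12973 tested genes with a 3′ UTR. Dmdo matches were in 3 of 10 (*Cacna1d*, *Rimbp2* and *Bsn*), against 20.3%. *Rimbp2* held both kinds, 2 wild-type and 1 Dmdo in 3531 bases. *Bsn* held 3 Dmdo matches in 3983 bases, one of them of 8 bases, which 3.44% of genes hold. *Ppfia4*, *Ctbp2*, *Rims2* and *Cabp2* held neither. These UTRs are mostly longer than the median of 1202 bases over tested genes.

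The sites of the called gene *Rimbp2* and of the scaffolds *Bsn* and *Pclo* and the channel gene *Cacna1d* are shown with the match in capitals, each on its transcript strand, to let the 2 seeds be compared. The first 3 are at chr5:128759456-128759484, chr5:128760302-128760330 and chr5:128760362-128760390 on the minus strand. Those of *Bsn* are at chr9:108097755-108097783, chr9:108097929-108097957 and chr9:108098772-108098800 on the minus strand, that of *Cacna1d* at chr14:30041203-30041231 on the minus strand and that of *Pclo* at chr5:14861581-14861609 on the plus strand.
Rimbp2, wild-type seed: ctggctttcttTGCCAAAgcgatggccac
Rimbp2, wild-type seed: ggctctgggcaTGCCAAAgctggtggaat
Rimbp2, Dmdo seed: actcatggtgaGAGCCAAgacaaaacttt
Bsn, Dmdo seed: taaaggattgtGAGCCAAgagatctatct
Bsn, Dmdo seed: tcccaggcctGAGCCAAAagaaactggtc
Bsn, Dmdo seed: tcagagcagagGAGCCAAgggagagcttc
Cacna1d, Dmdo seed: taggagaattaGAGCCAAttctcacatgt
Pclo, wild-type seed: atgctgccagtGTGCCAAgtttgcagctg

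A match is a description of the letters and not a measured site. Of the 4 members with a wild-type match, *Cabp1*, *Rimbp2* and *Cacnb2* had lower means in homozygous mutant than in wild-type HCs, of which only *Rimbp2* was called. *Cacnb2* was at 91.1% and *Pclo* at 123% of the wild-type mean. Of the 3 with a Dmdo match, *Rimbp2* was called lower, and *Bsn* and *Cacna1d* were at 38.4% and 61.1% of the wild-type mean without passing the test. *Ppfia4*, called lower, held no match of either kind in its 2098 bases.

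The members varied in how closely they tracked each other. Over the 9 libraries the 36 pairs of members had a median Pearson r of 0.398 on log2 CPM, from -0.199 to 0.847, with 33 above 0. *Rimbp2* was closest to the mean of the others (r = 0.932) and *Cacna1d* next (0.783), while *Pclo* was farthest (0.305). These points share library and genotype, so the values are a description. The 5 other genes most like the members' mean profile were *Atp6v0a1* (r = 0.967), *Vwa3a* (0.948), *Wasf1* (0.948), *Zfr2* (0.944) and *Mtcp1* (0.944), out of all genes tested.

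Other genes of the same synapse were read from 4 lists. For scale, of all 15184 genes tested between homozygous mutant and wild-type HCs, 7711 were below 0. An unadjusted p under 0.05 in either direction was reached by 1991 of them. Called lower were 0.915% and called higher 0.237%. Of 24 other active zone scaffold genes 19 passed the filter and 0 were called by edgeR between homozygous mutant and wild-type HCs, with a median log2 fold change of -0.39, 15 of 19 below 0 and 2 at an unadjusted p under 0.05. The 4 of smallest p were *Tspoap1* (-2.33, adjusted p = 0.251), a RIM-binding protein gene like *Rimbp2*, *Lin7b* (-8.33, 0.27), *Lin7c* (-0.83, 0.385) and *Unc13a* (-0.83, 0.416). *Lin7b* was at 0 in wild-type 59 and at 0 or 1 read in the homozygous mutant libraries, so its fitted value depends on the model. It is in both counts (below 0 and at an unadjusted p under 0.05). As it passed the filter through wild-type and heterozygous libraries only, the filter favoured that direction for it.

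Of 21 other voltage-gated calcium channel subunit genes 15 passed and 0 were called by edgeR, with a median of -0.61, 11 of 15 below 0 and 1 at an unadjusted p under 0.05. *Cacna2d2*, an α2δ subunit gene that is expressed in HCs, was at -1.04 (adjusted p = 0.288), *Cacnb3* at -0.63 (0.387), *Cacna1g* at 3.50 (0.455) and *Cacna1a* at -2.97 (0.48). *Cacna1g* had 6, 46 and 2 reads in wild-type against 147, 196 and 235 in homozygous mutant libraries, and *Cacna1a* 113, 89 and 795 against 180, 5 and 2. *Cacna1g* passed the filter without the wild-type libraries and *Cacna1a* without the homozygous mutant ones, so the filter favoured these directions. Of 9 other calcium sensor genes of the CaBP and calmodulin kind 6 passed and 0 were called by edgeR, with a median of 0.05 and 1 at an unadjusted p under 0.05. These were led by *Caln1* (6.06, adjusted p = 0.337), with 0 to 2 reads in each wild-type and heterozygous library and 60, 109 and 137 reads in the homozygous mutant libraries, through which alone it passed the filter, *Cabp7* (-0.87, 0.501), *Calm3* (-0.35, 0.525) and *Calm2* (0.37, 0.603). *Caln1* is the 1 gene of the list at an unadjusted p under 0.05, and its fitted value depends on the model.

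Of 18 genes of vesicle filling and fusion, which include *Slc17a8* for the glutamate transporter of HC vesicles, 16 passed. Among these 1 was called lower by edgeR, against 0.915% of all genes tested. The median was -0.71, with 14 of 16 below 0 and 7 at an unadjusted p under 0.05. The called gene was *Stx1a*, a SNARE protein of the plasma membrane (adjusted p = 0.0362), at 55.1, 91.7 and 135 CPM in wild-type and 35.4, 13.2 and 22.6 CPM in homozygous mutant libraries, without overlap. The next by p were *Vamp2*, the SNARE protein of vesicles (-1.16, adjusted p = 0.12), *Otof*, the calcium sensor otoferlin of HC exocytosis (-1.07, 0.125), and *Cplx2*, a complexin (-0.86, 0.175), none of them called. As for the members, all these lists were chosen with earlier results known.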

How the data were processed

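RNA of HCs sorted from P1 mice was sequenced in 9 libraries, 1 per mouse and 3 per genotype, from a kit that keeps strand. Per the labels and the study's methods, the authors aligned reads to GRCm38 with HISAT2 2.0.4, counted them per gene with HTSeq and deposited raw counts. The sources used here do not give the strand setting of the counting, and overlapping genes share at most 5.05% of the exon bases of a member in any pair. RNA integrity was lower in 1 wild-type and 1 homozygous mutant sample, whose numbers are not given.

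Counts were read by gene name and tested in edgeR 4.0.16 (TMM, robust quasi-likelihood, all 9 libraries in 1 fit, genotype only, Benjamini-Hochberg), in R 4.3.3, with Python 3.11.15 for tables. Likeness used log2 CPM with 0.5 CPM added. The test was checked on simulated counts. Alternatives were DESeq2 1.42.0, limma-voom (limma 3.58.1) with quality weights, RLE factors, library totals, no filter (at least 1 read), filterByExpr, 1 surrogate variable (sva 3.50.0), terms for mouse number or sex transcripts, the compared genotypes alone, an FDR of 5%, no fold threshold and left-out libraries. The text names all 10 members, up to 4 genes of smallest p per companion list plus any called one, and the 5 genes most like the members. Members and lists were chosen with earlier results of these data known. Some items are not reported here.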

Additional observations from a re-analysis of the deposited data

How the results depend on the processing

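Between homozygous mutant and wild-type HCs, 2 members were called, among 175 genes in all. The number was 5 with DESeq2 (*Cacna1d*, *Cabp1*, *Rimbp2*, *Bsn* and *Ppfia4*, of 966), 3 with no low-count filter (with *Bsn*, of 562), 0 with 1 surrogate variable (of 52), with the mouse number term (of 25), with the sex transcript term (of 12) or without wild-type 59 and homozygous mutant 46 together (of 23), and 1 (*Rimbp2*, of 61) at an FDR of 5%. Leaving out 1 library gave 0 to 4, with 4 without wild-type 44 (of 697), 1 without heterozygous 51 or homozygous mutant 46 (of 71 each), and 0 without wild-type 55 (of 75), wild-type 59 (of 26), homozygous mutant 43 (of 20) or homozygous mutant 47 (of 26). Between homozygous mutant and heterozygous HCs, 0 members became 1 (*Rimbp2*) with DESeq2, limma-voom or no low-count filter (of 147, 151 and 69 genes). For the slope per allele, 2 members (of 270 genes) became 5 with DESeq2 (of 1038), 3 with limma-voom or no low-count filter (with *Bsn*, of 783 and 466), 1 with library totals alone, 1 with 1 surrogate variable, 0 with the mouse number or the sex transcript term or without both libraries, 1 at an FDR of 5%, and 0 to 4 with 1 library left out. The cause was not tested.

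No called value changed sign in any alternative. Under RLE factors and filterByExpr both calls between homozygous mutant and wild-type HCs remained, and no alternative called a member between heterozygous and wild-type HCs. *Cacnb2* and *Pclo* had the sign reported in 18 of 20 alternatives between homozygous mutant and wild-type HCs, *Rims2* in 19, and the other 6 tested members in 20. No paired analysis was possible because the genotypes share no replicate number and no label used here ties mice to litters. With 3 mice per genotype, single ratios cannot reach an exact p under 0.1. Low counts limited *Cabp1*, with 0 to 4 reads in the homozygous mutant libraries.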
